A study of Mus musculus with 196 samples.

Results

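Non-anagen dorsal skin of these backcross mice fell into a high and a low class for Cwc22, a gene on chromosome 2. The classes were chosen by the measured log2 expression value in these dorsal arrays of the Cwc22 probe set with the highest mean. Mice above 9.7 are called Cwc22-high, and those at 9.7 or below are called Cwc22-low. Of the 196 arrays in the series, 85 held dorsal skin labelled as not in anagen, when hair follicles grow new shafts, and these gave 47 Cwc22-high mice (22 females and 25 males) and 38 Cwc22-low mice (19 females and 19 males). Tail skin was measured in 82 of these mice, 45 Cwc22-high and 37 Cwc22-low. Another 14 mice had dorsal skin in anagen, and these mice were used only to repeat the comparison. By their own dorsal value 10 were Cwc22-high (5 females and 5 males) and 4 Cwc22-low (3 females and 1 male).

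All mice, in both classes, came from 1 cross. FVB/N females were crossed with Mus spretus males, and the hybrid daughters were mated to FVB/N males. The mice were untreated, were kept on standard chow and were killed at 8 weeks, when shaved dorsal skin and tail skin were frozen. In such a cross each mouse carries, at any autosomal site, either only FVB/N copies or 1 copy from each parental species, and long stretches of a chromosome are inherited as a block. Genotypes were not analysed here, so the classes are classes of expression.

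Whole skin was measured, so fewer cells of a type and less RNA per cell cannot be told apart. Epidermal differentiation genes were high in every array, with means per array of 9.84 to 10.53 in Cwc22-high and 9.83 to 10.59 in Cwc22-low dorsal skin, and of 10.96 to 11.42 in Cwc22-high and 11.05 to 11.42 in Cwc22-low tails. Array medians over the series ran from 5.668 to 6.031. In dorsal skin 8 of the Cwc22-high and 2 of the Cwc22-low arrays came from the smaller batch, and in tail skin 3 Cwc22-high arrays and no Cwc22-low array did.

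Cwc22 encodes a protein of the spliceosome, the complex that removes introns. It brings the RNA helicase Eif4a3 to newly spliced exons, where Eif4a3 becomes the core of the exon junction complex, a mark that later acts in RNA export, translation and nonsense-mediated decay. In mice the gene is also known for a nearby stretch of DNA whose copy number differs between strains.

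The start regions of Cwc22 and of 2 genes further along chromosome 2 that differed between the classes in both tissues, Fads2b and Mpped2, are printed because the results turn on these genes. Each run holds the 250 bases before the gene's start, read in the direction of the gene, from RefSeq on build GRCm38.p6. Capitals mark matches, on either strand, to the CCAAT box (ATTGG on the other strand), to TATAAA for the TATA box, to GGGCGG for the GC box or to CACGTG for the E-box.
Cwc22, chr2:77946357-77946606, minus strand: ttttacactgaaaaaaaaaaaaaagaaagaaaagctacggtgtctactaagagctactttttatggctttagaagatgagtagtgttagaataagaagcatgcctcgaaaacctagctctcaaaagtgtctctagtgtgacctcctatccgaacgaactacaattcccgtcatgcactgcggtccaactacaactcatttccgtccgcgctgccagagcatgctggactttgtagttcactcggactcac
Fads2b, chr2:85518936-85519185, minus strand: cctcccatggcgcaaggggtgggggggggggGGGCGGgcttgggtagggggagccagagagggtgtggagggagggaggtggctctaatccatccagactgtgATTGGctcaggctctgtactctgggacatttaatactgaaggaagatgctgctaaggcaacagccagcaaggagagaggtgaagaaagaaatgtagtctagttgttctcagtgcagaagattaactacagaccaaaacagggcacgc
Mpped2, chr2:106692931-106693180, plus strand: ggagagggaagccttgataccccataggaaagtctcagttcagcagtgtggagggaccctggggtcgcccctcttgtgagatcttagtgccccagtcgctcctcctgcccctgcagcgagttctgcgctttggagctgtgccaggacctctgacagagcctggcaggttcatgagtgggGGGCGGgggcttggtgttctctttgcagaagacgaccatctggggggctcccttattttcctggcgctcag
The Cwc22 window held none of the 4 motifs, that of Fads2b held GGGCGG and CCAAT, and that of Mpped2, the first of 3 listed for the gene, held GGGCGG. Over all 32851 windows of this length, 33.8% held CCAAT, 32.7% GGGCGG, 12.4% TATAAA and 6.02% CACGTG. The Cwc22 window had 42.8% G and C, against 55.6% for Fads2b and 60.4% for Mpped2.

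Cwc22 itself was bimodal, with no mouse near the dividing value. In dorsal skin the Cwc22-high arrays read 10.13 at the lowest, 11.12 at the median and 11.51 at the highest, and the Cwc22-low arrays 7.63, 8.33 and 8.79. The groups averaged 11.05 ± 0.26 (SD, n = 47) and 8.31 ± 0.23 (SD, n = 38), with an empty interval of 1.34 between them. These values chose the classes and are given without a test. The mice nearest to the dividing value read 10.13, 10.71 and 10.72 above it and 8.79, 8.71 and 8.67 below it.

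The tails of the same mice, which the classes did not use, held the same separation. Cwc22 read 8.79, 11.12 and 11.45 (lowest, median and highest) in Cwc22-high tails, against 8.40, 8.64 and 9.13 in Cwc22-low tails. The means were 11.07 ± 0.37 (SD, n = 45) and 8.65 ± 0.15 (SD, n = 37), a log2 difference of 2.42 ± 0.066 (SE; adjusted p = 1.37e-48), or 5.35-fold. Of the 45 Cwc22-high tails, 44 lay above every Cwc22-low tail, the lowest of these 44 at 10.758 and the highest Cwc22-low tail at 9.132.

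The exception was mouse 1088, a female. Its Cwc22 value was 10.134 in dorsal skin, the lowest of its class, and 8.787 in tail skin, inside the range of the Cwc22-low tails. Its dorsal array had a median correlation of 0.975 with the other dorsal arrays, against a median of 0.977 over the 85 arrays. On a second Cwc22 probe set it read 7.32 in dorsal and 7.22 in tail skin, inside the Cwc22-low range in both tissues. Counts of calls in the non-anagen mice are given with and without this mouse where they differ.

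**Figure D1:**
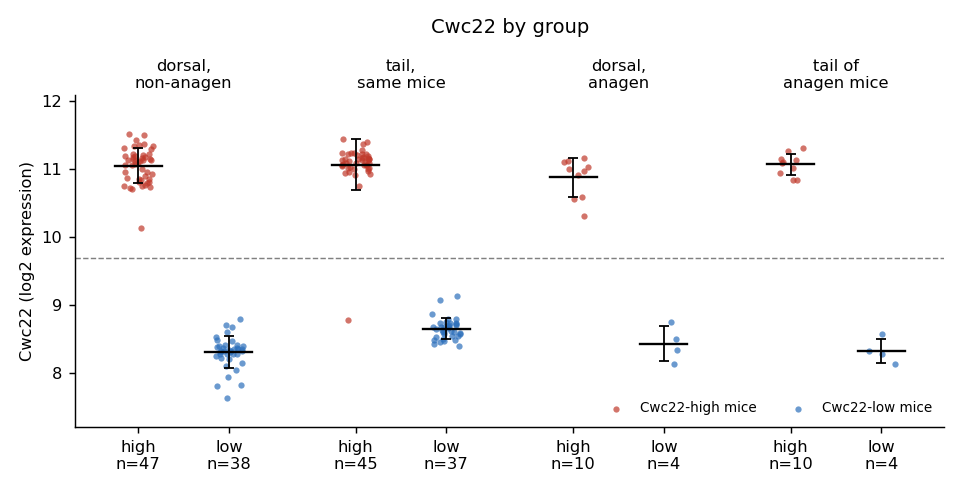
Cwc22 log2 expression in each array (points), with the mean and SD of each group (black), for dorsal skin labelled non-anagen, tails of the same mice, anagen dorsal skin and tails of the anagen mice; the dashed line is the dividing value of 9.7. Apart from 1 Cwc22-high tail at 8.79, no Cwc22-high point lies among the Cwc22-low points.

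The array has 8 probe sets that name Cwc22. Of these, 7 held identical values in every array, including the one used here, and the 8th gave a second reading. The second probe set averaged 8.52 ± 0.36 in Cwc22-high and 6.69 ± 0.36 in Cwc22-low dorsal skin (SD, n = 47 and 38). In tail skin it averaged 8.54 ± 0.28 in Cwc22-high and 6.88 ± 0.36 in Cwc22-low mice (SD, n = 45 and 37), a difference of 1.65 ± 0.071 (SE; adjusted p = 2.47e-34). Both readings were therefore higher in the same class, and the second differed by less than the first.

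In the 14 anagen mice the classes were also far apart. Their dorsal arrays, which placed them in a class, averaged 10.88 ± 0.29 (SD, n = 10) in Cwc22-high and 8.43 ± 0.26 (SD, n = 4) in Cwc22-low mice. Their tails averaged 11.07 ± 0.16 (SD, n = 10) in Cwc22-high and 8.32 ± 0.18 (SD, n = 4) in Cwc22-low mice, a difference of 2.76 ± 0.11 (SE; limma adjusted p = 1.56e-09), and did not overlap.

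Across the other 18819 genes, those called between the classes lay mostly on chromosome 2. In dorsal skin 23 genes were called at an adjusted p under 0.05 (0.122% of those tested). Of the 1631 other genes measured on chromosome 2, 22 were called (1.35%), 4 of them higher (0.245%) and 18 lower (1.1%) in Cwc22-high mice, against 1 of 17188 genes with another or no listed chromosome (0.00582%). In tail skin 71 genes were called (0.377%), 68 on chromosome 2 (4.17%) and 3 elsewhere (0.0175%). On chromosome 2, 20 of these were higher (1.23%) and 48 lower (2.94%) in Cwc22-high mice. At an unadjusted p under 0.05 the shares were 5.63% of all genes in dorsal and 4.07% in tail skin, with 16.1% on chromosome 2 against 4.64% elsewhere in dorsal skin, and 18.1% against 2.73% in tail skin.

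The called differences were small next to that of Cwc22. On chromosome 2 their sizes had a median of 0.31 (0.16 to 0.62) in dorsal skin and of 0.21 (0.10 to 0.86) in tail skin, where the median size over all other genes was 0.043 in dorsal and 0.028 in tail skin. For each called gene on chromosome 2 the 2 classes overlapped in the tissue of the call. The median signed difference on chromosome 2 was -0.015 in dorsal and -0.016 in tail skin, and over all genes -0.0038 and -0.0034. Without mouse 1088 the chromosome 2 counts were 28 in dorsal and 78 in tail skin and included all 22 and 68 of the calls with it. In the larger batch alone the dorsal count was 20. The tail count there was again 68, which is no separate check. The smaller tail batch held no Cwc22-low array, so with batch in the fit it could not inform the difference. In fits of 1 sex alone, the dorsal count was 8 in females and 1 in males, and the tail count 9 in females and 24 in males.

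The tissues shared part of these genes. Of the 23 dorsal calls 15 were also called in tail skin (65.2%), and of the 71 tail calls 15 were called in dorsal skin (21.1%). All 15 (0.0797% of all genes) lay on chromosome 2 (0.92% of the genes tested there) and had the same sign in both tissues, with 3 higher (0.184%) and 12 lower (0.736%) in Cwc22-high mice. Without mouse 1088, 18 genes of chromosome 2 were called in both tissues, all 15 among them. Of the 68 tail calls on chromosome 2, 65 had the same sign in dorsal skin. Median dorsal differences were 0.14 for the 20 genes called higher in tail skin and -0.17 for the 48 called lower. Over the 1563 genes of chromosome 2 not called in tail skin the dorsal median was -0.015. The tissues came from the same mice. With limma, no gene of another chromosome was called in both tissues (0%), while 37 of 17188 reached an unadjusted p under 0.05 with the same sign in each, against 133 of 1631 on chromosome 2.

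**Figure D2:**
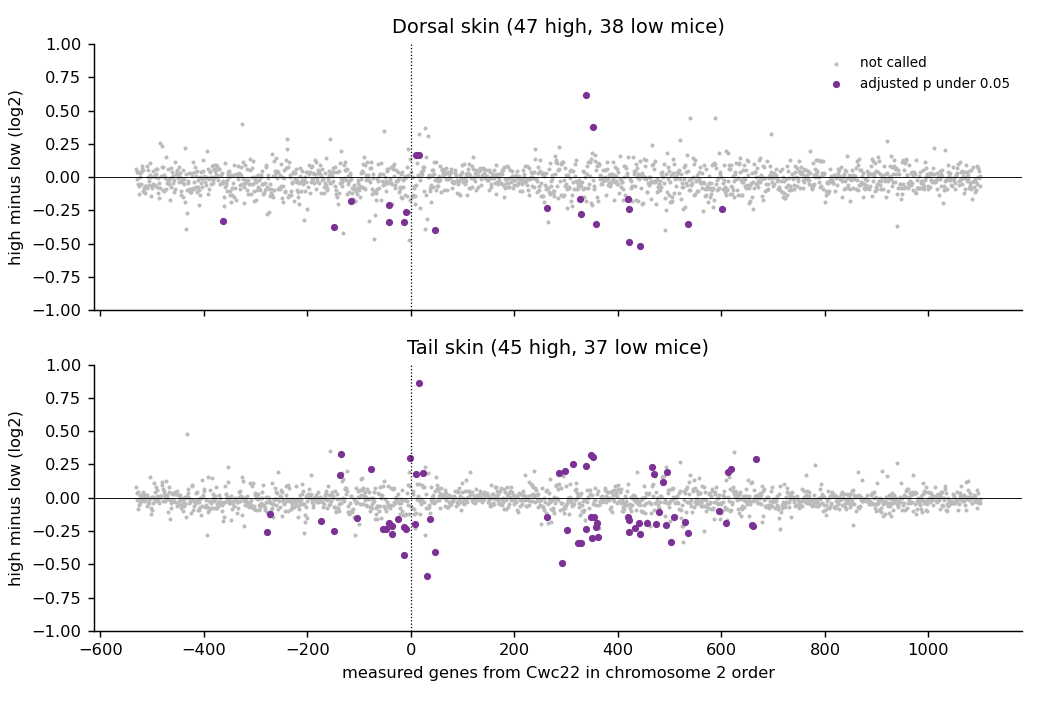
Differences between Cwc22-high and Cwc22-low mice (log2, y axis) for every other gene measured on chromosome 2, placed by its rank from Cwc22 (dotted line) along the chromosome, in dorsal skin above and tail skin below; purple points passed an adjusted p of 0.05. Called genes run from 363 genes before to 601 after Cwc22 in dorsal skin and from 279 before to 666 after it in tail skin.

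Of the 20 nearest measured neighbours of Cwc22, 10 on each side, 4 were called in tail and 2 in dorsal skin. An unadjusted p under 0.05 was reached by 9 and 8. Over all genes 0.377% in tail and 0.122% in dorsal skin were called, and 4.07% and 5.63% reached that unadjusted p. The called shares over chromosome 2 were 4.17% and 1.35%. Without mouse 1088 the calls among the 20 neighbours were 5 in tail and 2 in dorsal skin, and 2 neighbours were called in both. Zfp385b, a zinc finger gene and the nearest before Cwc22, was higher by 0.30 ± 0.066 in Cwc22-high tails (SE; adjusted p = 0.00901), at 6.80 ± 0.30 in Cwc22-high and 6.51 ± 0.29 in Cwc22-low mice (SD, n = 45 and 37). Its dorsal difference was 0.13 (adjusted p = 0.926). Osbpl6, a lipid-binding protein gene 9 places before, differed by -0.24 in tail skin (adjusted p = 0.00841) and by -0.00087 in dorsal skin (adjusted p = 1.00). Neither gene was called in dorsal skin. Dnajc10, which encodes a disulfide reductase of the endoplasmic reticulum and lies 8 places after, differed by -0.20 in tail (adjusted p = 3.23e-05) and by -0.14 in dorsal skin (adjusted p = 0.828). Rbm45, an RNA-binding protein gene 10 places before, differed by -0.26 in dorsal (adjusted p = 0.013) and by -0.12 in tail skin (adjusted p = 0.0879).

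With all mice, Nckap1 was the neighbour called in both tissues. It lies 10 places after Cwc22 and encodes a subunit of the WAVE complex, which starts actin branching at the cell edge. Tail values were 10.30, 10.62 and 10.79 (lowest, median and highest) in Cwc22-high mice, against 10.10, 10.45 and 10.61 in Cwc22-low mice, and 26 of the 45 Cwc22-high tails lay above every Cwc22-low tail. It was higher by 0.18 ± 0.025 in tail (SE; adjusted p = 3.57e-07) and by 0.16 ± 0.032 in dorsal skin (SE; adjusted p = 0.00235).

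The 15 neighbours called in neither tissue had differences of -0.47 (Ttn, the giant muscle protein titin, SE 0.42) to 0.21 (Fkbp7) in dorsal skin and of -0.23 (Pde1a) to 0.19 (Ttn) in tail skin. They include the integrin gene Itga4, the Wnt antagonist gene Frzb and Ube2e3.

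Calls were not confined to the vicinity of Cwc22. Among the 50 measured genes just before it, 9 were called in tail (18%) and 4 in dorsal skin, and among the 50 just after it, 7 in tail (14%) and 3 in dorsal skin. Without mouse 1088 these were 10 and 4 before it and 7 and 4 after it. From 51 to 250 genes after it none of 200 was called, and 4 in dorsal and 1 in tail skin reached an unadjusted p under 0.05. Of these 200 genes 198 are olfactory receptor genes. The longest stretch between neighbouring calls, from Fads2b to Psmc3, held 215 genes, of which 202 are olfactory receptors with a median level of 3.51, against 6.029 for all genes of chromosome 2.

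Calls returned beyond that cluster. Tail calls were 4 among genes 251 to 300 after Cwc22, 9 among 301 to 350 (18%), 5 among 351 to 400, 6 among 401 to 450 and 8 among 451 to 500 (16%), and without mouse 1088 they were 4, 10, 5, 7 and 9 in these steps. From 701 to 1100 genes after Cwc22 none of 400 was called in either tissue, and at an unadjusted p under 0.05 there were 32 in dorsal and 28 in tail skin. From 301 to 531 genes before it, at the start of the chromosome, none was called in tail skin and 1 in dorsal skin (Dnlz, a mitochondrial chaperone partner, at -0.33 with an adjusted p of 0.00235). At an unadjusted p under 0.05 that stretch of 231 genes had 30 in dorsal and 36 in tail skin, and without mouse 1088 it held 2 calls in each. Off chromosome 2 the shares at that unadjusted p were lower than in both stretches, at 4.64% in dorsal and 2.73% in tail skin.

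**Figure D3:**
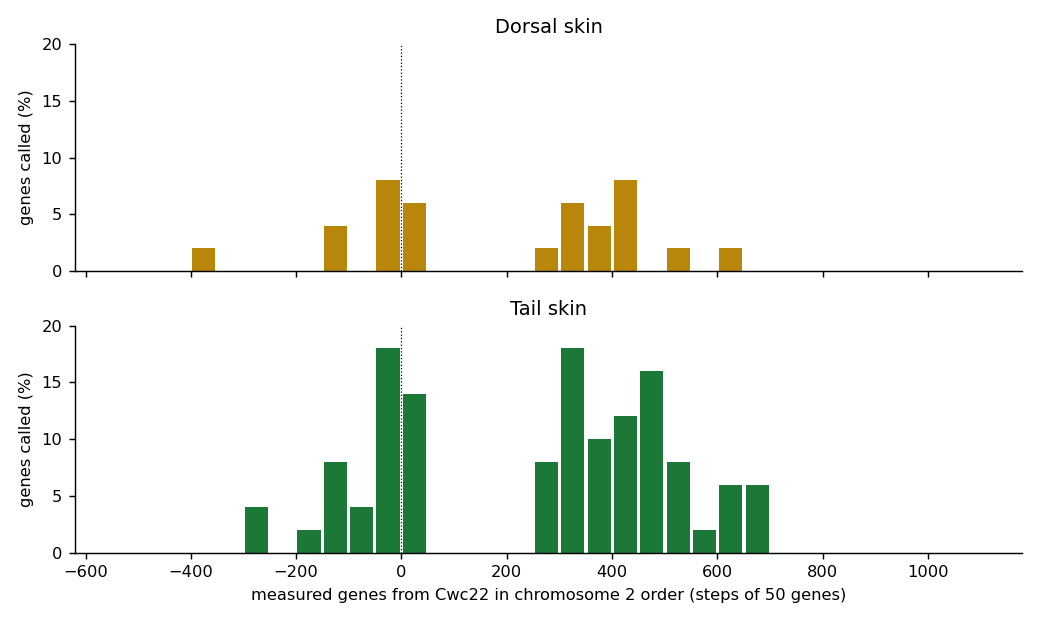
Percent of measured genes called at an adjusted p under 0.05 in steps of 50 genes along chromosome 2, by rank from Cwc22 (dotted line), in dorsal skin above and tail skin below. In tail skin the step just before Cwc22 and that at 301 to 350 genes after it both reach 18%, with no call from 51 to 250 after it.

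The genes higher in Cwc22-high mice in both tissues were Nckap1, Mpped2 and Prrg4. Prrg4, a membrane protein with a vitamin K-dependent domain, had the largest dorsal difference of the 15, with 8.46, 9.56 and 10.06 (lowest, median and highest) in Cwc22-high mice against 8.01, 8.92 and 9.87 in Cwc22-low mice. It was higher by 0.62 ± 0.081 in dorsal (SE; adjusted p = 5.08e-07; 1.53-fold) and by 0.24 ± 0.050 in tail skin (SE; adjusted p = 0.00516). Mpped2, a metallophosphodiesterase gene, read 5.18, 5.94 and 6.49 in Cwc22-high tails against 5.13, 5.61 and 6.25 in Cwc22-low tails. It was higher by 0.31 in tail (adjusted p = 0.000439) and by 0.38 in dorsal skin (adjusted p = 0.00248). The groups overlapped for both genes. Prrg4 and Mpped2 lie 339 and 351 places after Cwc22.

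The 12 genes lower in Cwc22-high mice in both tissues were led, by tail difference, by Ttc30b, Fads2b and Fbxo3. Fads2b belongs to the fatty acid desaturase family and lies 46 places after Cwc22. Its tail values were 10.17, 10.56 and 11.07 (lowest, median and highest) in Cwc22-high mice, against 10.69, 10.97 and 11.29 in Cwc22-low mice, and 33 of 45 Cwc22-high tails lay below every Cwc22-low tail. It was lower by 0.41 ± 0.040 on the log2 scale in tail (SE; adjusted p = 1.16e-12) and by 0.40 ± 0.063 in dorsal skin (SE; adjusted p = 5.26e-05), or 1.33-fold and 1.32-fold.

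Ttc30b, whose product is part of the particle that carries cargo along cilia, lies 14 places before Cwc22. In tails it read 6.76, 7.597 and 8.09 in Cwc22-high and 7.28, 8.07 and 8.38 in Cwc22-low mice, differing by -0.43 ± 0.057 (SE; adjusted p = 1.53e-07), with a dorsal difference of -0.34 (adjusted p = 0.0175). The groups overlapped over most of their range. Its neighbour Ttc30a1, of the same family, differed by -0.22 in tail (adjusted p = 0.0325) and by -0.02 in dorsal skin (adjusted p = 0.99), and shared sequence between these genes was not examined.

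Fbxo3, an adaptor that brings proteins to a ubiquitin ligase, averaged 9.13 ± 0.19 in Cwc22-high and 9.46 ± 0.21 in Cwc22-low tails (SD, n = 45 and 37). It differed by -0.34 in tail (adjusted p = 5.23e-08) and by -0.28 in dorsal skin (adjusted p = 0.000413). A second, dimmer probe set of Fbxo3, at a mean of 4.14, differed by -0.01 in tail skin (adjusted p = 1.00), so the difference rests on the brighter one. Psmc3, an ATPase of the proteasome, differed by -0.14 in tail (adjusted p = 0.000191) and by -0.23 in dorsal skin (adjusted p = 0.000609).

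Knstrn, Kif18a and Cdca7 were also lower in both tissues. Knstrn, whose product sits at the mitotic spindle and kinetochores, averaged 6.87 ± 0.36 in Cwc22-high and 7.39 ± 0.36 in Cwc22-low dorsal skin (SD, n = 47 and 38), a difference of -0.52 ± 0.077 (SE; adjusted p = 1.73e-05), with -0.27 in tail skin (adjusted p = 0.0374). Kif18a, a kinesin that aligns chromosomes in mitosis, differed by -0.35 in dorsal (adjusted p = 5.56e-05) and -0.22 in tail skin (adjusted p = 0.0027). Cdca7, a nuclear protein gene induced in the cell cycle, differed by -0.34 in dorsal (adjusted p = 9.25e-05) and -0.19 in tail skin (adjusted p = 0.0292). All 3 lie on chromosome 2. Of the 13 measured members of the mitotic cell cycle list none was called in either tissue. At an unadjusted p under 0.05 the list had 3 in dorsal and 0 in tail skin, beside 5.63% and 4.07% of all genes. Its median differences were -0.096 in dorsal and 0.019 in tail skin, against -0.0038 and -0.0034 over all genes. A part of cell division in the 3 differences was not tested.

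The remaining genes lower in both tissues were Dph6, Galk2, Kynu, BC052040 and Aqr. Dph6, needed for the diphthamide residue of elongation factor 2, had the second largest dorsal decrease at -0.49 ± 0.083 (SE; adjusted p = 0.000247) and differed by -0.26 in tail skin (adjusted p = 0.000652). Galk2, an N-acetylgalactosamine kinase gene and the farthest of the 15 from Cwc22 at 535 places after it, differed by -0.36 in dorsal (adjusted p = 0.000253) and -0.27 in tail skin (adjusted p = 6.92e-05). Kynu, an enzyme of tryptophan breakdown 149 places before Cwc22, differed by -0.37 in dorsal (adjusted p = 0.0254) and -0.25 in tail skin (adjusted p = 0.00638). The set was completed by BC052040, at -0.24 in dorsal (adjusted p = 0.00958) and -0.16 in tail skin (adjusted p = 0.035), and by Aqr, the spliceosome helicase described with the splicing genes.

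**Figure D4:**
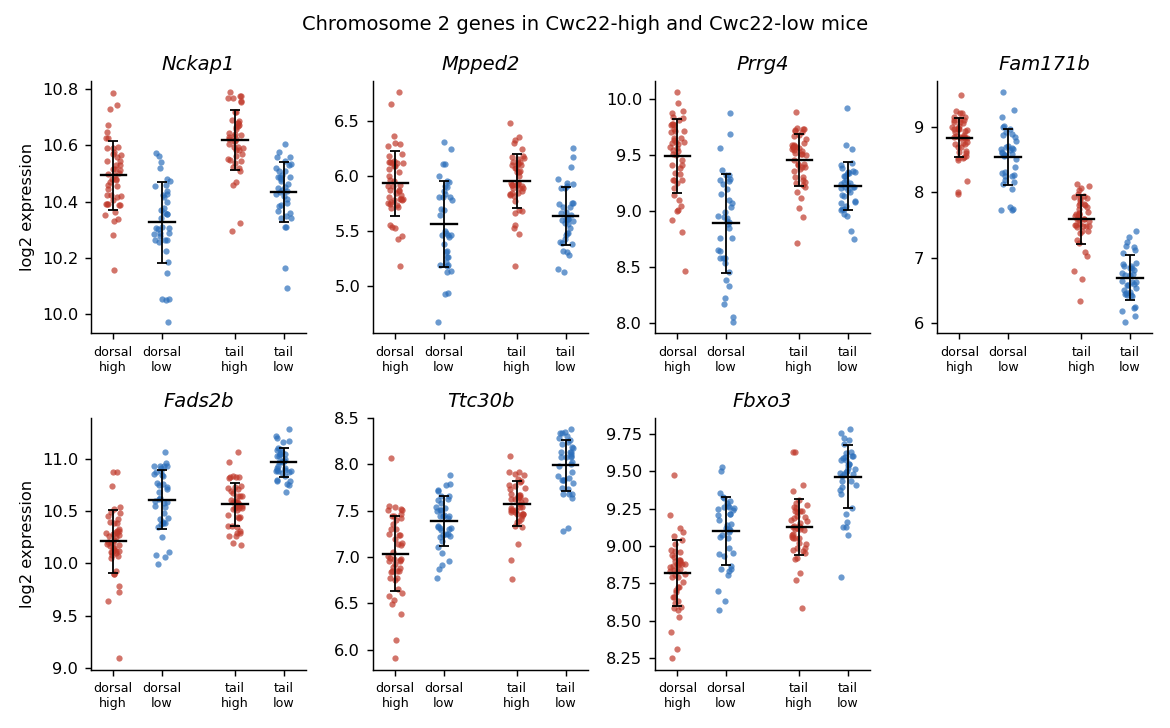
Log2 expression in each dorsal and tail array (points) with the mean and SD (black) of Cwc22-high (red) and Cwc22-low (blue) mice, for 7 genes of chromosome 2. Nckap1, Mpped2, Prrg4 and Fam171b have the higher mean in Cwc22-high mice and Fads2b, Ttc30b and Fbxo3 in Cwc22-low mice, and in each panel the groups overlap.

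For 2 genes the difference between the classes itself differed between dorsal and tail skin (0.0106% of genes tested). Fam171b, a membrane protein gene 16 places after Cwc22, read 6.34, 7.63 and 8.13 (lowest, median and highest) in Cwc22-high tails against 6.02, 6.64 and 7.41 in Cwc22-low tails. Its tail difference of 0.86 ± 0.078 (SE; adjusted p = 4.08e-14; 1.82-fold) was the largest in either tissue after Cwc22, and 35 of 45 Cwc22-high tails lay above every Cwc22-low tail. In dorsal skin it differed by 0.33 ± 0.078 (SE; adjusted p = 0.0521), and the dorsal minus the tail difference was -0.57 ± 0.11 (SE; adjusted p = 0.00729). The lowest Cwc22-high tail, at 6.337, was that of mouse 1088. The same tail was the lowest of its class for Mpped2 (5.183) and the highest for Fads2b (11.068), Ttc30b (8.093) and Fbxo3 (9.63). Each of these values lay inside the range of the Cwc22-low tails. For Nckap1 (10.47) and Prrg4 (9.395) it was no extreme.

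The other was 4631405J19Rik, an unannotated gene 292 places after Cwc22. It averaged 5.11 ± 0.26 in Cwc22-high and 5.58 ± 0.32 in Cwc22-low tails (SD, n = 45 and 37), a difference of -0.49 ± 0.062 (SE; adjusted p = 3.22e-08). In dorsal skin it averaged 4.86 ± 0.32 in Cwc22-high and 4.75 ± 0.30 in Cwc22-low mice (SD, n = 47 and 38). The dorsal difference was 0.11 (adjusted p = 0.915), and the dorsal minus the tail difference was 0.60 ± 0.092 (SE; adjusted p = 1.25e-05). All these means lay below the median gene mean of 6.49, so the gene was absent from the fit of genes above that median. At an unadjusted p under 0.05, 442 genes differed in this contrast (2.35%).

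Of the genes called in tail skin alone, Slc43a1, an amino acid transporter gene 31 places after Cwc22, had the largest decrease. It averaged 6.94 ± 0.43 in Cwc22-high and 7.51 ± 0.31 in Cwc22-low tails (SD, n = 45 and 37), a difference of -0.59 ± 0.077 (SE; adjusted p = 7.47e-08), and differed by -0.32 in dorsal skin (adjusted p = 0.63).

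The tails of the mice left out of the classes gave the same directions. In the tails of the 14 anagen mice, 20 of the 20 genes called higher and 48 of the 48 called lower on chromosome 2 had the same sign, with median differences of 0.29 and -0.28, against 0.21 and -0.21 in the tails that made the calls. Among the 1563 genes of chromosome 2 not called in tail skin, 673 were above and 890 below 0 in these 14 mice. With 10 against 4 mice limma called no gene but Cwc22 (0%), and 388 genes reached an unadjusted p under 0.05 (2.06%), 83 of them on chromosome 2 (5.09% of 1631, against 1.77% elsewhere). Fam171b differed by 0.97, Slc43a1 by -0.91 and Fads2b by -0.48.

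**Figure D5:**
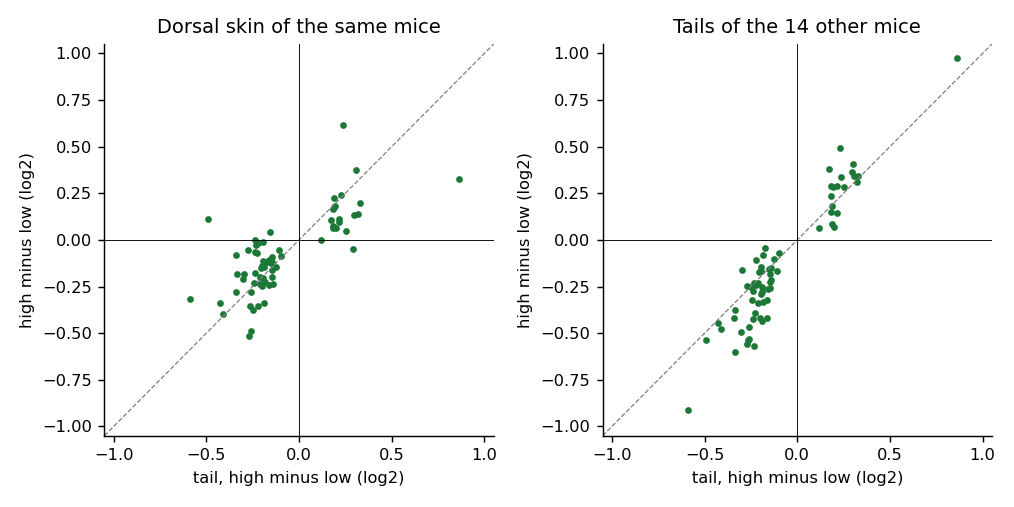
Differences between Cwc22-high and Cwc22-low mice (log2) for the 68 genes of chromosome 2 called in tail skin, with the tail difference on the x axis and, on the y axis, that in dorsal skin of the same mice (left) or in tails of the 14 anagen mice (right); the dashed line marks equality. On the left 65 of 68 points share the sign of their tail difference, and on the right all 68 do.

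Anagen dorsal skin held another pattern beside these genes. Between its 10 Cwc22-high and 4 Cwc22-low arrays 70 genes were called (0.372%; 52 higher and 18 lower), and 41 of the 70 were keratins, keratin-associated proteins, Tchh or Prr9, genes of the growing hair. At an unadjusted p under 0.05 there were 2521 (13.4%). The mean of the hair shaft keratin list was 6.56 to 11.08 (median 8.50) in Cwc22-high arrays and 5.50 to 5.91 (median 5.76) in Cwc22-low arrays, and that of the inner root sheath list 7.12 to 11.72 (median 10.34) and 6.45 to 7.41 (median 6.57). Hair genes moved with the classes in these 14 arrays, and their part in the other calls was not tested. On chromosome 2, 7 genes were called, all lower (0.429%), near the share elsewhere, 63 of 17188 (0.367%). At an unadjusted p under 0.05 the shares were 14.2% on chromosome 2 and 13.3% elsewhere. The 7 genes included Fads2b at -0.79 (adjusted p = 0.0123) and Fbxo3 at -0.89 (adjusted p = 0.0312). Of the 15 genes called in both tissues of the other mice, 13 had the same sign here. The exceptions were Nckap1, at -0.13, and Psmc3, at 0.12. Most of the 15 were lower in Cwc22-high mice, and in anagen dorsal skin more genes were lower than higher. Over all genes, 8.67% were lower and 4.72% higher at an unadjusted p under 0.05.

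For partners of Cwc22 in splicing, the lists were too short to read a small count against the share of all genes called, 0.122% in dorsal and 0.377% in tail skin. None of the 14 measured genes of the exon junction complex and its partners was called, nor reached an unadjusted p under 0.05, in either tissue, and their median differences were -0.022 in dorsal and 0.00025 in tail skin. None of 11 nonsense-mediated decay genes was called, with 1 in dorsal and 0 in tail skin at an unadjusted p under 0.05. Over all genes 5.63% in dorsal and 4.07% in tail skin did so. Of 38 spliceosome genes 1 was called in each tissue (2.63%), Aqr, a helicase that binds introns. Aqr lies on chromosome 2, 419 places after Cwc22, and differed by -0.16 ± 0.036 in dorsal (SE; adjusted p = 0.0201) and by -0.15 ± 0.037 in tail skin (SE; adjusted p = 0.0395).

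None of the 19 lists of skin cell types and states had a member called in either tissue by limma. At an unadjusted p under 0.05 they had 16 of 189 members in dorsal (8.47%) and 14 in tail skin (7.41%), beside 5.63% and 4.07% of all genes. The skeletal muscle list varied widely among dorsal arrays, from 4.89 to 10.73 (median 6.84) in Cwc22-high and from 5.15 to 9.50 (median 7.64) in Cwc22-low mice, and its part in the results was not tested. Smooth muscle genes had 5 of 10 members at an unadjusted p under 0.05 in dorsal and 0 in tail skin, with median differences of 0.17 and 0.06. Pigment synthesis genes had 2 of 10 in dorsal and 4 in tail skin, and mast cell genes 0 of 9 in dorsal and 3 in tail skin.

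Of 45 measured genes of chromosome 2 with known roles in skin, 1 was called in dorsal (2.22%) and 2 in tail skin (4.44%), near the shares of 1.35% and 4.17% over the whole chromosome. Itgav, the integrin alpha v chain, lies 15 places after Cwc22 and was higher by 0.16 in dorsal skin (adjusted p = 0.0215), with 0.10 in tail skin (adjusted p = 0.719). The homeobox genes Dlx1 and Hoxd9, 48 and 25 places before Cwc22, differed by -0.23 (adjusted p = 0.000611) and -0.16 (adjusted p = 0.00901) in tail skin, and by -0.03 and 0.04 in dorsal skin (adjusted p = 0.983 and 0.982).

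Outside chromosome 2 the 4 calls were each made in a single tissue, and 2 of them were lost without mouse 1088. Adad2, on chromosome 8 and known from germ cells, averaged 5.51 ± 0.24 in Cwc22-high and 5.30 ± 0.25 in Cwc22-low dorsal skin (SD, n = 47 and 38), a difference of 0.23 ± 0.054 (SE; adjusted p = 0.0452), and differed by -0.07 in tail skin. In tails Tmprss11g, a serine protease gene on chromosome 5, was higher by 0.35 (adjusted p = 0.0184), while Tulp2 on chromosome 7 differed by -0.21 (adjusted p = 0.0163) and Calr4 on chromosome 4 by -0.19 (adjusted p = 0.0463). Without mouse 1088 Adad2 differed by 0.22 in dorsal skin (adjusted p = 0.0569) and Calr4 by -0.17 in tail skin (adjusted p = 0.0653). The counts stayed at 1 and 3, since Gm15348 on chromosome 8 in dorsal and Gpr37 on chromosome 6 in tail skin were called instead. All 4 had means below the median gene mean of 6.49 in both groups of the tissue of the call.

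Among genes of chromosome 2, separated levels as wide as those of Cwc22 were not seen. Its 2 levels in dorsal skin stood 11.04 pooled SDs apart. With at least 4 pooled SDs and at least 6 mice in each level required, 6 other genes of chromosome 2 passed (Ifih1, Slc1a2, Snap25 and 3 olfactory receptor genes). The smaller level of these held 6 to 14 of the 85 mice, so they split the mice far less evenly than Cwc22, with 47 and 38. For Ifih1, Slc1a2, Snap25 and the olfactory receptor gene Olfr1301 it held 6, the fewest allowed. The rule does not tell a few extreme values from a separate level. At 3 pooled SDs, 278 genes passed. Of these Prrg4, cut into 52 upper and 33 lower mice, had the fewest mice on the other side from their Cwc22 class, 19 of 85. The cut of each gene was the one with the least spread within its 2 groups, so values without separate levels are also cut apart. Whether any of these genes has 2 levels was not tested.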

How the data were processed

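Total RNA (1 ug per array) from dorsal and tail skin was labelled for a mouse gene array. The authors deposited log2 values made with RMA, per the submitters' processing notes. RMA corrects background, normalizes arrays by quantiles and summarizes probes, and its version is not given in the sources used here. The table held 35556 probe sets, of which 21218 named 1 gene, 1881 several and 12457 none. For each of 18820 genes the probe set with the highest mean was used (1386 genes had several), and no filter on low values was applied. Gene order along chromosome 2, with 1632 measured genes, came from RefSeq (GRCm38.p6), used for order only. A base difference between FVB/N and Mus spretus under a probe can change its signal, which was not tested.

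Differences, Cwc22-high minus Cwc22-low, were estimated in each tissue by lmFit and eBayes of limma 3.58.1 (R 4.3.3), with sex and batch as covariates. P-values were adjusted by Benjamini-Hochberg over all genes, and a value under 0.05 made a call. Cwc22 has no p in dorsal skin, where it set the classes. The dorsal minus tail contrast was fitted over both tissues without mouse in the fit, so the 2 arrays of a mouse were treated as independent. Mouse as a replicate block was an alternative. Mouse numbers pair the tissues: over 82 mice the deviations of a mouse's 2 arrays had a median correlation of 0.145, against 0.00042 with other mice. Named genes were the 20 neighbours of Cwc22, the largest called differences (10 in each direction, 5 in the dorsal minus tail contrast), called members of the lists (4 a list) and genes with separated levels. The rule left symbols without annotation unnamed unless they were neighbours. Psmc3, BC052040, Slc43a1, Ttc30a1, Dnlz, Gm15348, Gpr37 and 4631405J19Rik fall outside this rule and were chosen after their values were seen. The classes, lists and tests were chosen with earlier results of these data known. Simulated differences of 0.25 and 0.5 were each given to 100 of 18820 genes. Of these, 63% and 98% were recovered in dorsal and 85% and 97% in tail skin. Among the unchanged genes 5 were called in dorsal and 12 in tail skin. Recovery with fewer changed genes was not tested. Summaries and figures used Python 3.11.15, pandas 2.3.3, numpy 2.4.6 and matplotlib 3.10.9. The number of arrays limits the precision.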

Additional observations from a re-analysis of the deposited data

Results flagged for a closer look

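The difference between Cwc22-high and Cwc22-low mice differed between the tissues for 2 genes. The dorsal minus the tail difference was 0.603 for 4631405J19Rik and -0.568 for Fam171b, by limma's contrast over both tissues.

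Among the 10 Cwc22-high arrays of anagen dorsal skin, 1 array stood far below the others for 2 genes. Galk2 read 6.094 there, against 6.782 to 7.281 in the other 9, and Aqr read 8.513, against 8.817 to 9.102. Both values came from mouse 1039. In all, 32 such groups of 4 to 10 arrays were examined, and chance alone singles out about 1 in 20 groups.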

How the results depend on the processing

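The chromosome 2 counts kept within 1.5 times of their values under most settings, with 20 to 33 genes in dorsal skin (22 as reported) and 62 to 95 in tail skin (68 as reported), but not within 1 sex: females alone gave 8 and males alone 1 in dorsal skin, and 9 and 24 in tail skin, and genes called in both tissues (15) were then 1 and 0. Quantile normalization gave 23 genes called in both tissues. For tail skin the larger batch alone was no separate check, since the smaller tail batch held no Cwc22-low array. The count of dorsal calls off chromosome 2 (1) became 0 without sex and batch, with arrays shifted to the same median, with quantile normalization, with genes above the median mean, in males and with limma's trended robust fit, 4 in females and 6 without the 5 least correlated arrays. That of tail calls (3) became 0 with genes above the median mean, 0 in females and 1 in males. With mouse as a replicate block, the dorsal minus tail contrast again called 2 genes, also with each mouse's tissues subtracted, and 1 among genes above the median mean. Genes that passed the rule for separated levels numbered 278 at 3 and 2 at 5 pooled SDs, against 6 at 4. The causes were not tested. For single genes in these alternatives, 1333 values kept their direction and call, 100 lost the call, 20 gained it and none reversed. No mouse lay within 0.3 of the dividing value, so that setting changed nothing. Leaving out mouse 1088 and the tails of the anagen mice were alternatives chosen after seeing the data.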

Other observations

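RefSeq lists 7 pseudogenes of equal length (3054 bases) in a row on chromosome 2, just after Zswim2, which is 17 measured genes after Cwc22. The array has 7 probe sets naming Cwc22 with identical values in every array. Whether these probe sets read the pseudogenes was not tested.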
